A study of Mus musculus with 9 samples.

Results

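The 10 genes described here carry iron into cells, store it, release it or sense it: Trf, Tfrc, Slc11a2, Slc11a1, Fth1, Ftl1, Ncoa4, Slc40a1, Aco1 and Ireb2. They were taken by name from a table of 56748 genes, and each name matched 1 row. The table held RNA-seq read counts from 9 libraries of hematopoietic stem cells (HSCs), sorted from mouse bone marrow by the SLAM surface markers. All mice were female and of the C57BL/6 background, and no agent was given. Young HSCs (yHSCs) came from mice of 6 to 10 weeks, and early-aged, or pre-aged, HSCs (paHSCs) came from mice of 14 to 16 months. The paHSCs were divided by surface P-selectin (Selp) into Selp_low and Selp_high fractions, which gave 3 groups of 3 libraries. The fractions are gates on a single surface protein, and the sources used here do not say whether a library came from 1 mouse or from a pool, so each p-value measures the spread between these libraries. In bulk libraries, fewer cells of a type and less RNA per cell cannot be told apart.

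Iron in plasma is carried by transferrin, the product of Trf. Cells take it up through the transferrin receptor (Tfrc), and the metal leaves the endosome through the divalent metal transporter encoded by Slc11a2, while its relative Slc11a1 moves metal out of the phagosomes of macrophages and neutrophils. Surplus iron is held in ferritin, a shell of heavy (Fth1) and light (Ftl1) chains that Ncoa4 delivers to lysosomes when iron is needed, and ferroportin (Slc40a1) is the exporter. Aco1 and Ireb2 encode the iron regulatory proteins IRP1 and IRP2. When iron is scarce, both bind short stem-loops, the iron-responsive elements (IREs), in messenger RNAs: binding to the 5′ untranslated region (5′ UTR) blocks translation, and binding to the 3′ UTR protects the message from decay. In the bone marrow, iron is used above all by erythroid precursors for heme, and macrophages return it from old red cells.

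The IREs are printed because their place in the message divides the uptake genes from the storage and export genes. A search of mouse protein-coding transcripts (GENCODE M21) looked for a C, any 5 bases (NNNNN), the loop CAGTG, 1 base other than G and 5 more bases, on the sense strand, with at least 4 of the 5 facing bases of the arms able to pair. It found the element in 5 of the 10 genes. Each is shown as DNA, 5′ to 3′, with 6 bases on either side and the loop in capitals.
Tfrc, 3′ UTR, the first: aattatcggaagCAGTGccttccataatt
Tfrc, 3′ UTR, the second: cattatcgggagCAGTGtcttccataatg
Tfrc, 3′ UTR, the third: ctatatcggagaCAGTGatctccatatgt
Tfrc, 3′ UTR, the fourth: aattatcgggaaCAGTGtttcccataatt
Slc11a2, 3′ UTR: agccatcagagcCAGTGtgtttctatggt
Fth1, 5′ UTR: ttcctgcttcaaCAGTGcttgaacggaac
Ftl1, 5′ UTR: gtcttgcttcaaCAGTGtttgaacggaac
Slc40a1, 5′ UTR: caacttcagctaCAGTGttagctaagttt
The uptake genes Tfrc and Slc11a2 carried the element after the coding sequence, and the storage and export genes Fth1, Ftl1 and Slc40a1 carried it before. In Tfrc, all 4 elements lay in transcript Tfrc-201, between bases 3315 and 3834 of 4890. The others lay at bases 1797 to 1825 of Slc11a2-205, 87 to 115 of Fth1-201, 78 to 106 of Ftl1-201 and 90 to 118 of Slc40a1-201, counted from the start of the transcript. The match in Slc11a2 had 4 of 5 arm pairs, and the other 7 had 5 of 5. In Slc11a2, 1 of 6 protein-coding transcripts held it (Slc11a2-205). It was in 1 of 3 for Tfrc, 4 of 5 for Fth1, 1 of 2 for Ftl1 and 1 of 4 for Slc40a1. The counts do not separate transcripts. In Trf, Slc11a1, Ncoa4, Aco1 and Ireb2, these letters were not found in any protein-coding transcript. The same search matched 1763 of 21901 protein-coding genes (8.05%), so a match alone is a description. Elements of this kind act on translation or on message decay, and read counts do not measure translation.

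The libraries held between 24866975 and 35375310 reads in genes. Levels are given as CPM, the reads of a gene scaled to a common library size with TMM factors, and values for replicates 1, 2 and 3 are in that order. Selp, the gene of the sorting marker, was at 24.6 ± 4.90 CPM in yHSCs, 77.2 ± 42.2 in Selp_low and 394 ± 223 in Selp_high paHSCs (mean ± SD, n = 3). Of 7 HSC markers, all 7 were detected in each library. Selp_low replicates 2 and 3 stood apart from the other libraries: their TMM factors were 0.545 and 0.785, against 1.05 to 1.22 elsewhere, and 44.8% and 20.9% of their reads fell in 10 genes, led by Igkc, an antibody light chain, and Ngp, a neutrophil granule gene. A gene counted as differentially expressed (DEG) when edgeR's quasi-likelihood test, run on every gene past a filter on low counts, put its adjusted p at no more than 0.05 and its log2 fold change no nearer to 0 than 1.

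All 10 genes passed that filter in each comparison, and edgeR called 0 of the 10 in each. In Selp_high against Selp_low paHSCs, 0% of 20370 tested genes were called. Against yHSCs, 0.165% of 20017 were called for Selp_high and 0% of 20437 for Selp_low. DESeq2 called 0 of the 10 in Selp_high against Selp_low (2.46% of its genes), 0 in Selp_high against yHSCs (3.26%) and 1 of 10, Trf, which was lower, in Selp_low against yHSCs (2.63%, and 0.835% as lower). At an unadjusted edgeR p under 0.05 there were 2, 1 and 1 of the 10, against 12.5%, 7.59% and 11.3% of all tested genes. The median log2 fold change of the 10 was 0.09, 0.02 and -0.20, and that of all tested genes was -0.11, -0.03 and 0.08. The list was drawn up with earlier results of these counts known, and no threshold was applied. Its members may therefore have been chosen by their differences between these groups, and the fold changes and p-values below are descriptions of these libraries.

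**Figure D1:**
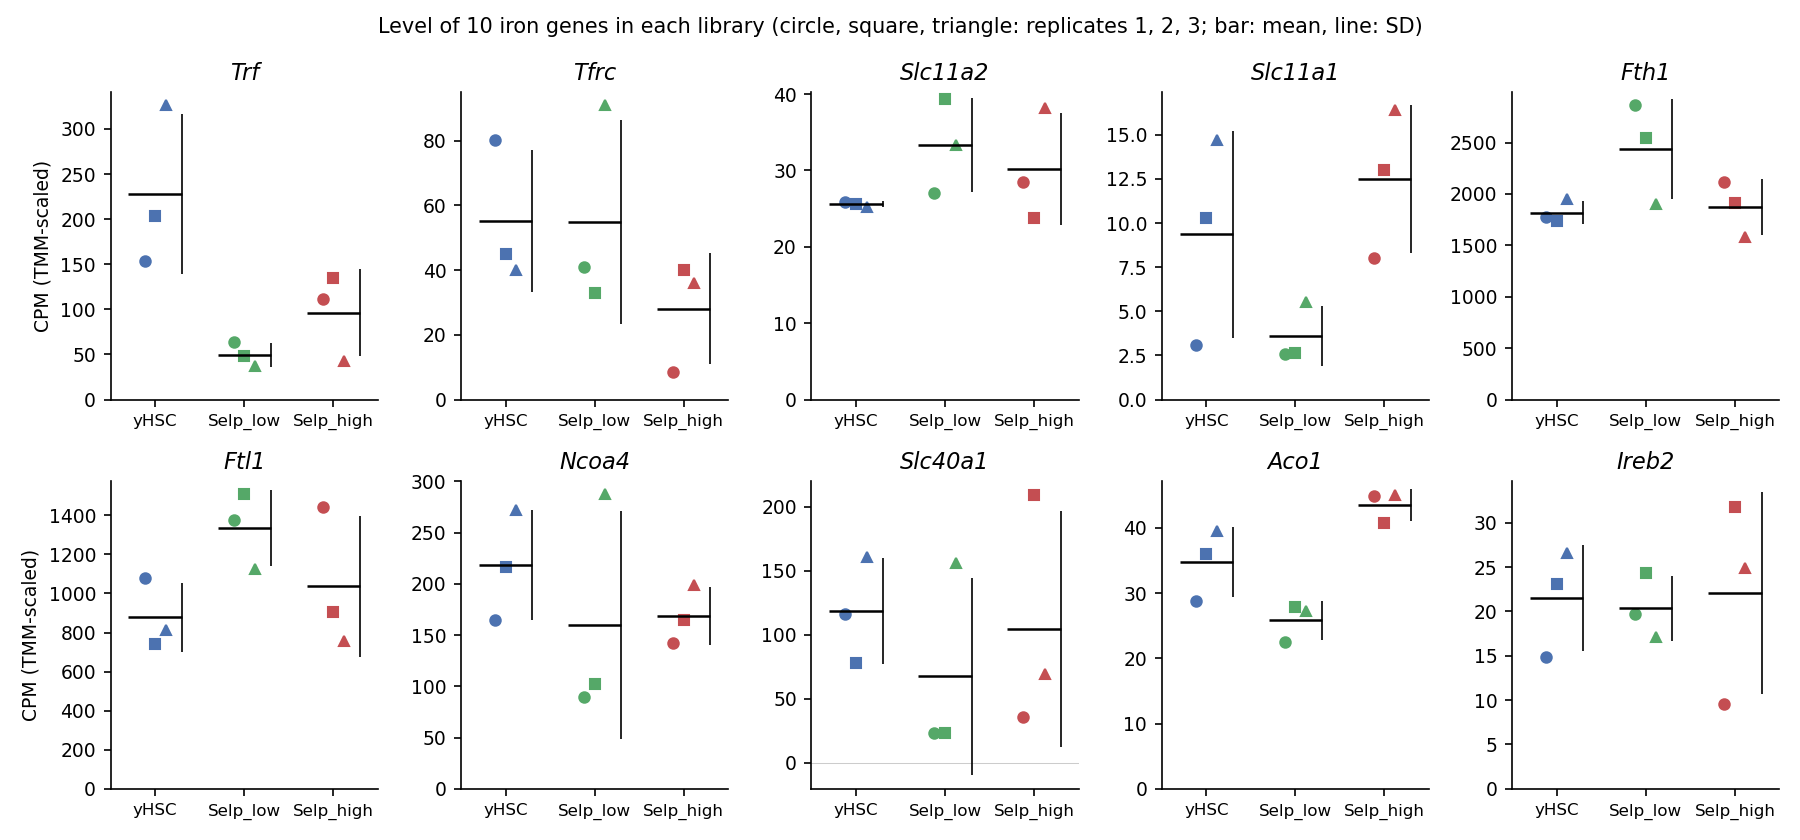
Level of each of the 10 genes in CPM (vertical axes, each starting at or below 0) in the 3 libraries of yHSCs, Selp_low and Selp_high paHSCs. Points are libraries with the replicate number as symbol, horizontal bars are means and vertical lines SDs. Trf is highest in the yHSCs, Slc11a1 and Aco1 are higher in each Selp_high than in each Selp_low library, and Slc40a1 and Tfrc vary widely within groups.

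Trf (ENSMUSG00000032554, chr9:103081200-103107643 of mm39, minus strand) had the largest difference by age among the 10. The yHSC libraries were at 154, 204 and 326 CPM, the Selp_low libraries at 63.7, 48.6 and 37.2, and the Selp_high libraries at 112, 135 and 42.2. Every yHSC library was above every paHSC library, and among the paHSCs only Selp_high replicate 3 fell within the Selp_low range. Transferrin is made mainly by hepatocytes, and here its message gave between 4543 and 11939 reads in a yHSC library. In Selp_low paHSCs, Trf was 4.37-fold lower than in yHSCs, with a log2 fold change of -2.13 (SE 0.36). The adjusted p was 0.332 by edgeR and 0.000777 by DESeq2, and over 13 alternatives it ran from 0.000777 to 0.981. The edgeR value equalled the lowest that any of the 20437 genes received in that comparison. Without Selp_low replicate 2 the log2 fold change was -2.17, and without replicate 3 it was -2.03. In Selp_high paHSCs, Trf was 2.37-fold lower than in yHSCs (log2 fold change -1.24, SE 0.47), with an edgeR adjusted p of 0.578, and the 2 comparisons share the yHSC libraries. Selp_high over Selp_low gave 0.94 (SE 0.46), with an edgeR adjusted p of 0.453. The libraries also differed in markers of other cells. The 7 B and plasma cell markers summed to 157, 266 and 242 CPM in yHSCs. They summed to 5471, 105654 and 77.7 in Selp_low and 370, 3625 and 643 in Selp_high paHSCs. The 7 HSC markers summed to 1006, 1939 and 2240 CPM in yHSCs and 1470, 1284 and 782 in Selp_low paHSCs. In Selp_high paHSCs they summed to 3027, 2269 and 2087. Over the 9 libraries, Pearson's r of log2 Trf with the log2 sum was 0.45 for HSC and -0.32 for B and plasma markers. For the other lists it was -0.778 (T and NK cells), -0.636 (erythroid), -0.524 (megakaryocyte and platelet), -0.264 (macrophage and monocyte) and -0.0609 (neutrophil). The part of cell content in the Trf values was not tested.

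Tfrc (ENSMUSG00000022797, chr16:32427738-32451612, plus strand) varied widely within groups. It was at 80.2, 45.0 and 40.1 CPM in yHSCs, 40.9, 32.8 and 90.9 in Selp_low and 8.60, 39.9 and 35.9 in Selp_high paHSCs. All 3 Selp_high libraries were below all 3 yHSC libraries, although by less than 1 CPM at the nearest point, and Selp_low overlapped both groups. The log2 fold change of Selp_high over yHSC was -1.02 (SE 0.59), and that of Selp_high over Selp_low was -0.97 (SE 0.64), with edgeR adjusted p-values of 0.833 and 0.573. Selp_high replicate 1 carried much of both: without it the values were -0.57 and -0.54. Without Selp_low replicate 3, the value for Selp_high over Selp_low was -0.40. Tfrc is abundant in erythroid precursors. The 8 erythroid markers were all detected in each library, and their summed level was 304 to 2729 CPM in yHSCs, 1506 to 3282 in Selp_low and 822 to 1291 in Selp_high paHSCs. Among yHSCs the sum and Tfrc were both highest in replicate 1. In Selp_low the sum was highest in replicate 1 and Tfrc in replicate 3, where the sum was 1549, and in Selp_high Tfrc was highest in replicate 2, where the sum was lowest. Over the 9 libraries, Pearson's r of log2 Tfrc with the log2 sum was 0.269 for erythroid and -0.792 for HSC markers. For the other lists it was 0.63 (macrophage and monocyte), 0.512 (neutrophil), 0.364 (T and NK cells), -0.238 (B and plasma) and -0.21 (megakaryocyte and platelet). Selp_low replicate 3, where Tfrc was highest, also had the highest sum of neutrophil markers, at 212712 CPM. The part of erythroid or other cells in the Tfrc values was not tested.

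The metal transporters differed from each other. Slc11a2 (ENSMUSG00000023030, chr15:100285779-100322953, minus strand) was nearly level across yHSCs, at 25.9, 25.6 and 25.2 CPM. It was at 27.1, 39.4 and 33.4 in Selp_low and 28.5, 23.8 and 38.2 in Selp_high paHSCs. Each Selp_low library was above each yHSC library, with a log2 fold change of 0.43 (SE 0.24) and an edgeR adjusted p of 0.588. A row on the opposite strand, Gm5475, lies over Slc11a2 and had at most 155 reads in a library. Whether counting used strand is not given in the sources used here.

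Slc11a1 (ENSMUSG00000026177, chr1:74414354-74425221, plus strand) had the largest difference between the paHSC fractions. It was at 3.08, 10.3 and 14.7 CPM in yHSCs, 2.56, 2.64 and 5.54 in Selp_low and 8.04, 13.0 and 16.4 in Selp_high paHSCs. All 3 Selp_high libraries were above all 3 Selp_low libraries, and the yHSCs spanned both. Over all 10 genes, 2 were higher in this way in Selp_high (Slc11a1 and Aco1) and 0 were lower, while 10.3% of all tested genes were higher and 10.6% lower in this way, 20.9% together. Slc11a1 was 3.47-fold higher in Selp_high than in Selp_low paHSCs, with a log2 fold change of 1.8 (SE 0.49). The adjusted p was 0.338 by edgeR, 0.0518 by DESeq2 and 0.000355 when DESeq2 also took replicate number as a block. That last fit called 10.1% of its genes, 4.61% as higher. With the block in edgeR, which called 0.0442% of genes, the adjusted p was 0.103. Over 13 alternatives the adjusted p ran from 0.000355 to 0.882, and the log2 fold change stayed between 1.55 and 2.26 when 1 library was left out. This was also the gene with the fewest reads, between 40 and 572 in a library.

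Neutrophil markers are given beside Slc11a1, which those cells express, and macrophage markers follow under Slc40a1. The 9 neutrophil markers were all detected in each library, and they summed to 12916 to 64842 CPM in yHSCs, 542 to 212712 in Selp_low and 1667 to 41897 in Selp_high paHSCs. The sum was highest in the same library as Slc11a1 in Selp_low and in Selp_high (replicate 3 of each), and in yHSCs it was highest in replicate 1, where Slc11a1 was lowest. The part of neutrophils in the Slc11a1 values was not tested. Without Selp_low replicate 3, the log2 fold change of Selp_high over Selp_low was 2.26. The summed level of the 7 HSC markers was itself higher in each Selp_high library (2087 to 3027 CPM) than in each Selp_low library (782 to 1470), and its part in the Slc11a1 values was not tested.

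**Figure D2:**
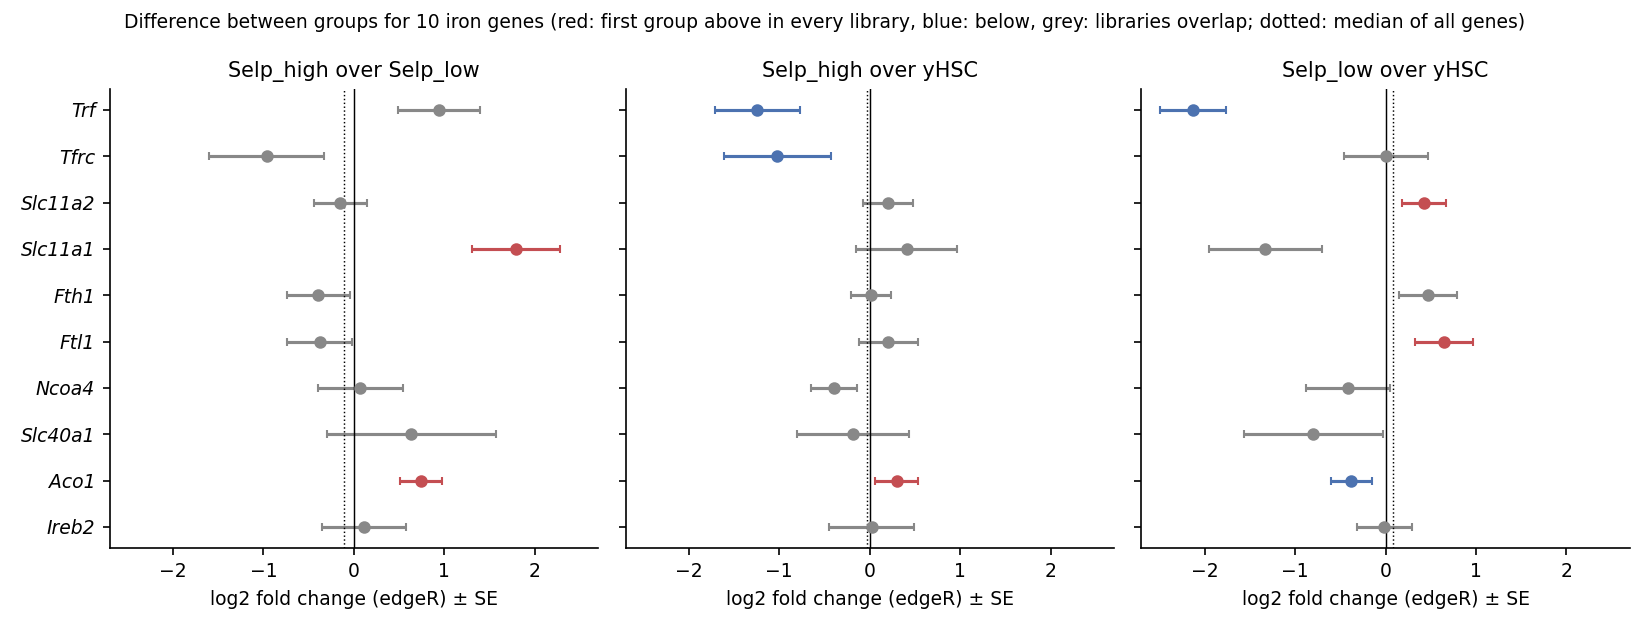
Log2 fold change of each gene in each of the 3 comparisons (horizontal axis, edgeR estimate ± SE). Red and blue mark genes whose libraries do not overlap, grey those that do, and the dotted line is the median of all tested genes. The values farthest from 0 are -2.13 for Trf in Selp_low over yHSC and 1.8 for Slc11a1 in Selp_high over Selp_low.

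Ferritin messages were the most abundant of the 10. Fth1 (ENSMUSG00000024661, chr19:9957962-9962462, plus strand) was at 1776, 1734 and 1948 CPM in yHSCs, 2861, 2545 and 1903 in Selp_low and 2119, 1911 and 1584 in Selp_high paHSCs. The groups overlapped, and the log2 fold change was 0.47 (SE 0.32) for Selp_low and 0.01 (SE 0.22) for Selp_high over yHSC. The second of these changed sign with the DESeq2 size factors, and both tools left it within 0.02 of 0. Ftl1 (ENSMUSG00000050708, chr7:45107368-45109308, minus strand) was at 1078, 741 and 813 CPM in yHSCs, 1376, 1509 and 1124 in Selp_low and 1445, 907 and 757 in Selp_high paHSCs. Here each Selp_low library was above each yHSC library, with a log2 fold change of 0.65 (SE 0.32) and an edgeR adjusted p of 0.514. Selp_high overlapped both other groups.

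Fth1 had more reads than Ftl1 in all 9 libraries. The ratio of Fth1 to Ftl1 counts was 1.65, 2.34 and 2.40 in yHSCs, 2.08, 1.69 and 1.69 in Selp_low and 1.47, 2.11 and 2.09 in Selp_high paHSCs, so the groups overlapped. Together, the 2 genes took 0.298% to 0.339% of all reads in yHSCs, 0.221% to 0.461% in Selp_low and 0.246% to 0.390% in Selp_high paHSCs, before TMM scaling. Ferritin has processed copies in the genome. The 3 rows of Ftl1 copies with at least 10 reads (Ftl1-ps1, Ftl2-ps and Ftl1-ps2) held between 3.05% and 4.31% as many reads as Ftl1, and the Fth1 copies held at most 0.0490% as many as Fth1. Reads of gene and copy cannot be told apart with certainty. Adding the copies to the gene changed no direction and no call.

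Ncoa4 (ENSMUSG00000056234, chr14:31881822-31901812, plus strand), which takes ferritin to the lysosome, was at 165, 217 and 272 CPM in yHSCs, 89.8, 102 and 288 in Selp_low and 142, 165 and 199 in Selp_high paHSCs. Selp_low held both the lowest and the highest values of the 9, and its replicate 3 lay far above the other two. Selp_low over yHSC was -0.41 (SE 0.47) with that library and -1.19 without it. Selp_high over Selp_low was 0.07 (SE 0.47), and 0.81 without it. A processed copy, Ncoa4-ps, held 15.6% to 19.2% as many reads as Ncoa4, and including it changed no direction and no call.

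Slc40a1 (ENSMUSG00000025993, chr1:45947228-45965683, minus strand), the iron exporter of the cell surface, had the widest spread of the 10 relative to its mean in both paHSC fractions. It was at 116, 78.4 and 161 CPM in yHSCs, 23.1, 23.3 and 156 in Selp_low and 35.7, 209 and 69.1 in Selp_high paHSCs. Each paHSC fraction held 1 library that was far above its other two, and the groups overlapped in each comparison. The log2 fold change was 0.63 (SE 0.93) for Selp_high over Selp_low, with an edgeR adjusted p of 0.814. It was 2.17 without Selp_low replicate 3 and -0.38 without Selp_high replicate 2. Selp_low over yHSC was -0.80 (SE 0.77) with all libraries and -2.36 without Selp_low replicate 3, where the edgeR adjusted p was 0.0780. Over 13 alternatives that p ran from 0.0780 to 0.9999.

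Ferroportin is abundant in the macrophages that recycle red cells. Vcam1, a surface protein of those and other marrow cells, was at 80.8, 80.7 and 145 CPM in yHSCs, 24.7, 17.1 and 285 in Selp_low and 50.3, 211 and 67.0 in Selp_high paHSCs, and it was highest in the same library as Slc40a1 in each group. The complement gene C1qa, a defining macrophage marker, was at 8.77, 20.5 and 35.5, then 8.13, 7.18 and 2.02, then 4.44, 52.1 and 6.39 CPM in the same order. It was highest in Selp_high replicate 2, where Slc40a1 was highest, and lowest in Selp_low replicate 3, where Slc40a1 was the highest of its group. Of the 10 macrophage and monocyte markers, 0 were at 0 in any library, and they summed to 387 to 586 CPM in yHSCs, 227 to 2306 in Selp_low and 237 to 722 in Selp_high paHSCs. The highest sum, in Selp_low replicate 3, was made up mainly of Ly6c2, a monocyte marker, at 1988 CPM and Vcam1 at 285. In that library 7 of the 10 markers (Adgre1, Cd68, C1qa, C1qb, C1qc, Ccr2 and Cd163) were at their lowest of the 9 libraries. The part of such cells in the Slc40a1 values was not tested.

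**Figure D3:**
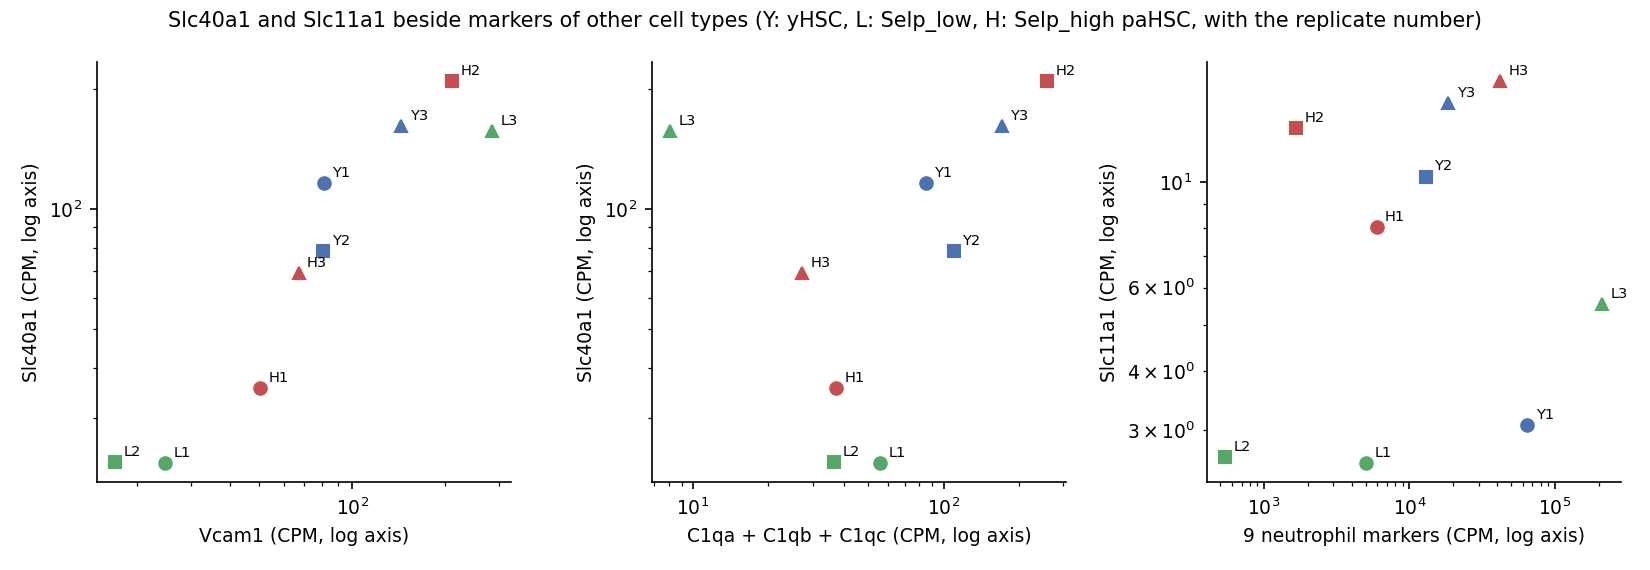
Level of Slc40a1 against Vcam1 (left) and against the sum of C1qa, C1qb and C1qc (middle), and level of Slc11a1 against the sum of 9 neutrophil markers (right), all in CPM on log axes, with 1 point for each of the 9 libraries. Slc40a1 and Vcam1 rank alike across most libraries, Selp_low replicate 3 (L3) stands off in the middle panel, and in the right panel L3 and H3 are highest of their groups on both axes while Y1 is highest for the markers and lowest for Slc11a1 among yHSCs. The part of other cells was not tested.

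Of the genes for the iron regulatory proteins, Aco1 (ENSMUSG00000028405, chr4:40143081-40198338, plus strand) was the steadier within groups. It was at 28.8, 36.0 and 39.5 CPM in yHSCs, 22.4, 27.8 and 27.3 in Selp_low and 44.8, 40.7 and 45.1 in Selp_high paHSCs. The groups did not overlap in any of the 3 comparisons, with Selp_low at the bottom, yHSCs between and Selp_high at the top. The share of all tested genes ordered in this way was not computed. The log2 fold change was 0.74 (SE 0.23) for Selp_high over Selp_low, 0.30 (SE 0.24) for Selp_high over yHSC and -0.38 (SE 0.23) for Selp_low over yHSC. The edgeR adjusted p-values were 0.338, 0.942 and 0.620, and the first stayed between 0.67 and 0.84 on the log2 scale when 1 library was left out. The HSC markers were higher in each Selp_high than in each Selp_low library here too, and their part was not tested. Ireb2 (ENSMUSG00000032293, chr9:54771073-54819814, plus strand) was at 14.9, 23.1 and 26.5 CPM in yHSCs, 19.7, 24.3 and 17.1 in Selp_low and 9.59, 31.8 and 24.9 in Selp_high paHSCs. Selp_high held both the lowest and the highest library, and the 3 log2 fold changes were 0.11, 0.02 and -0.02, each with an SE of 0.30 or more.

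Counting each gene once, the libraries of Selp_high paHSCs and yHSCs did not overlap for 1 gene that was higher in Selp_high (Aco1) and 2 that were lower (Trf and Tfrc), against 8.52% of all tested genes higher and 5.28% lower, 13.8% together. For Selp_low and yHSCs there were 2 that were higher in Selp_low (Slc11a2 and Ftl1) and 2 that were lower (Trf and Aco1), against 9.59% higher and 6.74% lower, 16.3% together. With 3 libraries a side, an exact permutation test of a single gene could not give a 2-sided p below 0.1.

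Levels of different genes are compared per length, as FPKM, the reads of a gene scaled by library size and by the gene length of the file. FPKM was computed without TMM factors. Beside CPM it is therefore lower in Selp_low replicates 2 and 3, whose factors were 0.545 and 0.785, and groups are better compared by CPM. In yHSCs the mean FPKM was 763 for Ftl1 and 609 for Fth1, then 78.8 for Trf, 26.9 for Ncoa4, 15.1 for Slc40a1, 10.4 for Tfrc, 8.97 for Aco1, 4.68 for Slc11a2, 2.89 for Slc11a1 and 2.62 for Ireb2. In that order, the libraries of Slc40a1 overlapped those of Tfrc, those of Tfrc overlapped Aco1, those of Slc11a2 overlapped Slc11a1, and those of Slc11a1 overlapped Ireb2, while the other neighbours did not overlap. Ftl1 and Fth1 ranked 25th and 38th of all genes in yHSCs. Trf was placed 672nd in yHSCs, 3826th in Selp_low and 2154th in Selp_high paHSCs. In Selp_low paHSCs, Trf at 12.5 FPKM came after Ncoa4 at 13.5, with overlapping libraries, and Slc11a1 came last at 0.771, below Ireb2 at 1.69 in every library. In Selp_high paHSCs, Aco1 at 10.7 FPKM was above Slc11a2 at 5.23 in every library, and Tfrc was in the eighth place at 5.10.

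The order of the ferritin chains depended on the length used. The file gives Fth1 a length of 3469 bases and Ftl1 1340, whereas the transcripts Fth1-201 and Ftl1-201 have 929 and 968. By the lengths of the file, the ratio of Fth1 to Ftl1 lay between 0.566 and 0.926 in the 9 libraries. By those of the transcripts it lay between 1.53 and 2.5, so the heavy chain was then the more abundant in each library.

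**Figure D4:**
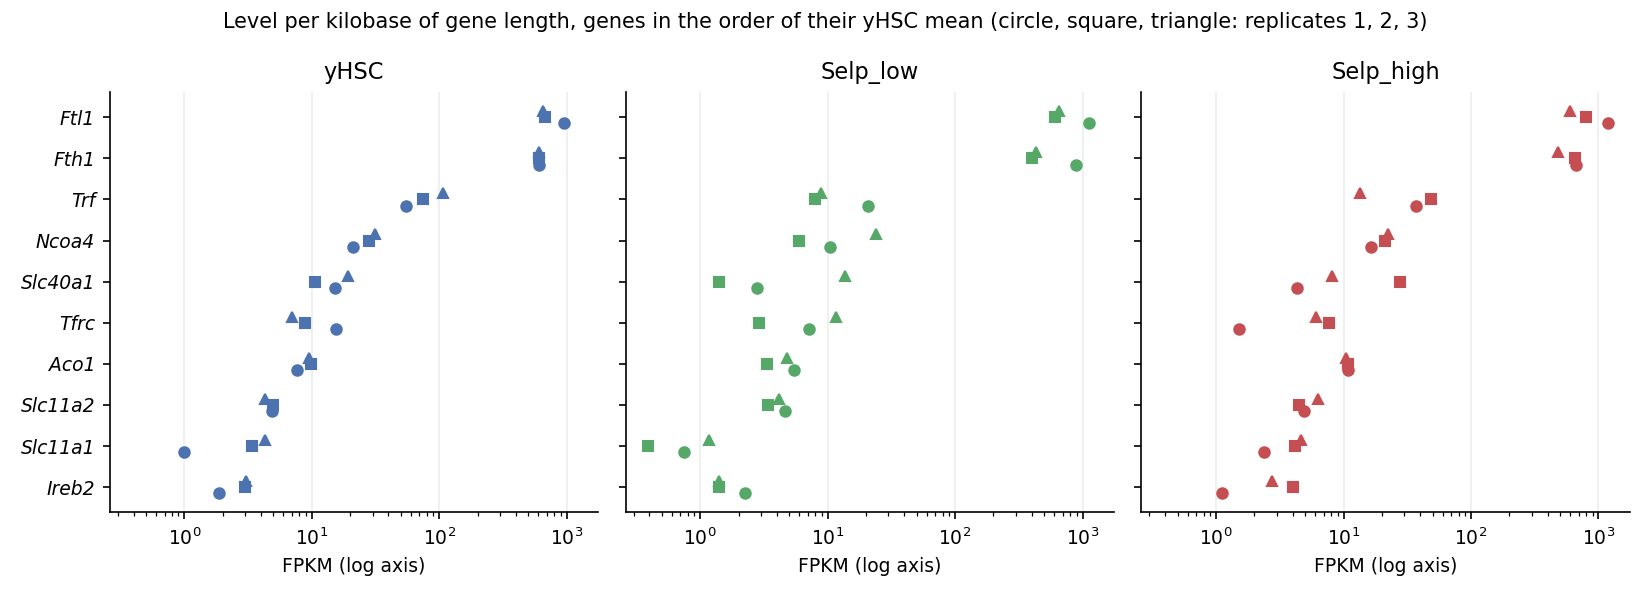
FPKM of the 10 genes on a log axis shared by the 3 panels (yHSC, Selp_low, Selp_high), with 1 point for each library and the genes in the order of their yHSC mean. The ferritin chains lie above all others in each panel, at 399.6 FPKM or more, and the Trf points move from 55 to 106 FPKM in yHSCs to 7.98 to 20.9 in Selp_low paHSCs.

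Ratios within a library do not depend on its scaling factor. The ratio of Tfrc to Slc40a1, the importer over the exporter, was 1.01, 0.836 and 0.362 by FPKM in yHSCs, 2.57, 2.05 and 0.846 in Selp_low and 0.351, 0.277 and 0.755 in Selp_high paHSCs. Each Selp_high library was below each Selp_low library, with 0.755 and 0.846 as the nearest values, and the yHSCs overlapped both. The share of other gene pairs whose ratios separate in this way was not computed. Both genes varied widely within groups, and the part of erythroid cells and macrophages in the ratio was not tested. The ratio of Ireb2 to Aco1 was 0.244, 0.304 and 0.319 in yHSCs, 0.416, 0.415 and 0.297 in Selp_low and 0.101, 0.370 and 0.262 in Selp_high paHSCs. By these lengths Ireb2 was below Aco1 in all 9 libraries, and the groups overlapped.

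**Figure D5:**
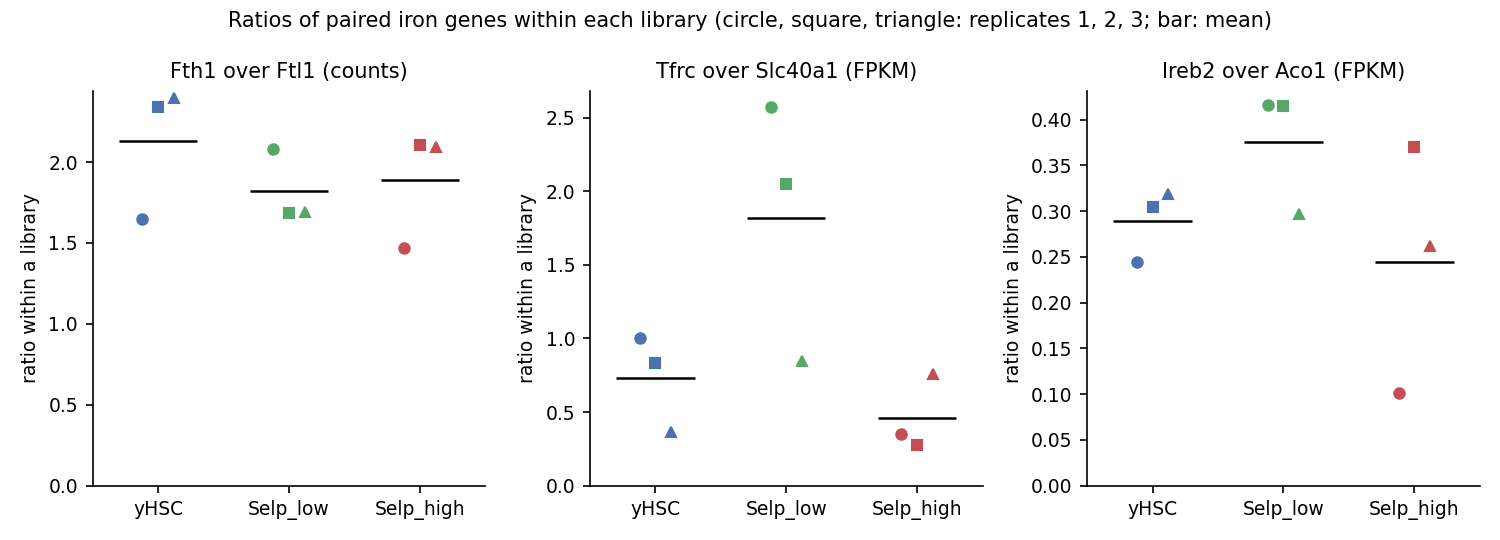
Ratios within each library for Fth1 over Ftl1 (counts), Tfrc over Slc40a1 (FPKM) and Ireb2 over Aco1 (FPKM), with points for libraries and bars for means, all axes starting at 0. The Tfrc to Slc40a1 ratio is 0.846 to 2.57 in Selp_low and 0.277 to 0.755 in Selp_high paHSCs, and the other ratios overlap between groups. The share of other gene pairs that separate in this way was not computed.

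For the 3 genes with the largest difference between Selp_high and Selp_low, the genes whose levels were most alike were sought by Pearson's r of log2 CPM over the 9 libraries, among 22594 genes. These are descriptions over libraries that share groups and scaling. For Slc11a1 they were Smo (r = 0.992), Akt2 (0.991), Ctnnb1 (0.989), Casd1 (0.988) and Rcor2 (0.988). For Trf they were BC016579 (0.981), Rfx8 (0.979), Kcnab1 (0.968), Abcc3 (0.951) and Msrb3 (0.950). For Tfrc they were Tcp11x2 (0.961), Sass6 (0.958), Gm28874 (0.955), Phyhip (0.948) and Pklr (0.938).

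A wider list of 49 genes of iron and heme handling, written from general knowledge with earlier results of these counts known, gave the setting. In Selp_high against Selp_low paHSCs, 42 were tested, and edgeR and DESeq2 each called 0 of them, with 8 at an unadjusted edgeR p under 0.05, where 12.5% of all tested genes stood. Their median log2 fold change was 0.01, with 22 above and 20 below 0. Libraries did not overlap for 7 that were higher and 3 that were lower, against 10.3% and 10.6% of all tested genes. Of the 9 listed genes of heme uptake, breakdown and export, 8 were tested and 6 were higher in Selp_high. While 10.3% of all tested genes were higher without overlap, 4 of these 8 were. These were Hmox1, which breaks heme down, Cd163, the receptor for haptoglobin with hemoglobin, the heme transporter Slc48a1, and Slc46a1, a folate transporter that can also carry heme, the last pair named after their values were seen. In the other parts of the list, 2 of 14 genes of uptake, 1 of 3 of storage and 0 of 4 of export were higher without overlap. So were 0 of 2 of systemic regulation and 0 of 11 of mitochondrial iron. The heme genes were thus the highest of several small parts. Cd163 is also one of the macrophage markers, and the part of cell content was not tested. Slc48a1 was at 148, 263 and 306 CPM in yHSCs, 184, 186 and 335 in Selp_low and 429, 345 and 475 in Selp_high paHSCs, a log2 fold change of 0.82 (SE 0.33) over Selp_low with an edgeR adjusted p of 0.383. The median of the 11 genes of mitochondrial iron and iron-sulfur clusters was -0.04, with 5 above and 6 below 0.

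The 4 largest differences of the wider list between Selp_high and Selp_low fell on genes with few reads. The ferritin receptor Scara5 had 49, 36 and 18 reads in Selp_low and 0, 19 and 0 in Selp_high libraries. Ceruloplasmin (Cp), a ferroxidase, had 117, 366 and 31 against 36, 75 and 29. Bmp6, which drives hepcidin expression in the liver, had 53, 106 and 4 against 0, 58 and 9, and the reductase Steap4 had 14, 18 and 4 against 40, 26 and 190. Their log2 fold changes were -3.27 (SE 1.71), -3.02 (SE 1.11), -2.38 (SE 1.75) and 1.99 (SE 1.13), and those of Scara5 and Bmp6 depend on the prior count because libraries were at 0. With the block, DESeq2 called 6 of the wider list: Scara5, Cp, Tfr2, Slc22a17, Slc46a1 and Cd163. That fit called 10.1% of all its genes. Tfr2, the second transferrin receptor, which was named after its values were seen, was at 78.9, 192 and 186 CPM in yHSCs, 65.9, 63.0 and 106 in Selp_low and 267, 127 and 203 in Selp_high paHSCs. All 3 Selp_high libraries were above all 3 Selp_low libraries, with an edgeR log2 fold change of 1.34 (SE 0.36) and adjusted p-values of 0.338 by edgeR and 0.00251 by DESeq2 with the block.

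Compared with yHSCs, the wider list had 42 genes tested in Selp_high and 44 in Selp_low paHSCs, and edgeR called 0 in each, with 6 and 7 at an unadjusted p under 0.05, against 7.59% and 11.3% of all tested genes. DESeq2 called 0 in Selp_high, against 3.26% of its genes, and 2, both lower, in Selp_low, against 2.63% and 0.835% as lower: Hmox1 and Cd163. With the block it called 2 in each, against 4.15% of its genes for Selp_high and 2.51% for Selp_low. For Selp_high these were Lcn2 and Ltf, at log2 fold changes of -2.465 and -2.451, both among the neutrophil markers. For Selp_low they were again Hmox1 and Cd163. Replicate numbers shared with yHSCs were not taken as pairs, so the block has no basis in these 2 comparisons and its calls are descriptions. Hmox1 was at 29.7, 95.9 and 134 CPM in yHSCs, 20.1, 23.5 and 15.2 in Selp_low and 37.4, 43.4 and 27.2 in Selp_high paHSCs. Each Selp_low library was below each library of the other groups, and the log2 fold change of Selp_low over yHSC was -2.06 (SE 0.52), with adjusted p-values of 0.332 by edgeR and 0.0264 by DESeq2. Cd163, which is also one of the macrophage markers above, was at 11.1, 19.8 and 24.7 CPM in yHSCs, 4.85, 4.08 and 4.05 in Selp_low and 7.42, 18.7 and 9.45 in Selp_high paHSCs. Its log2 fold change was -2.04 (SE 0.36), with adjusted p-values of 0.332 by edgeR and 0.00124 by DESeq2. Slc22a17, a receptor for lipocalin 2, was at 24.2, 68.9 and 59.1 CPM in yHSCs and 22.9, 11.9 and 9.07 in Selp_low paHSCs, a log2 fold change of -1.72 (SE 0.51) with an edgeR adjusted p of 0.337. Cp was the other of the 4 largest, at 1.79 (SE 1.24), between Cd163 and Slc22a17 in size and with overlapping libraries. For Selp_high over yHSC the 4 largest were Scara5 at -3.47 (SE 2.5), the heme-binding protein Hpx at -3.34 (SE 1.86), the transporter Flvcr2 at -1.54 (SE 1.8) and Bmp6 at -1.38 (SE 2.16), each with at least 1 Selp_high library at 0 reads, so that these values depend on the prior count. Hamp, which encodes the hormone hepcidin, had between 0 and 12 reads in a library and was below the filter, as were Hamp2, Hjv, Tmprss6 and Ftmt, in all 3 comparisons.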

How the data were processed

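Libraries were made from total RNA with an ultra-low-input cDNA kit. The authors trimmed reads with fastp, aligned them with HISAT2 (2.2.1), counted them with featureCounts (2.0.6) and deposited raw counts for each gene and library. The submitters' processing notes also name mm39, CASAVA (1.8) and DESeq2 (1.42.0), and neither the annotation release nor the strand setting is given in the sources used here. All columns of the table were used.

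Counts were tested with edgeR (4.0.16) in R (4.3.3): TMM factors, filterByExpr, and the quasi-likelihood test in each pair of groups, with Benjamini-Hochberg adjustment over all genes tested. DESeq2 (1.42.0), other factors, no filter, 1 fit of all 9 libraries, a replicate block and leaving out each library were alternatives. Log2 CPM used a prior count of 2. The 10 genes and the lists were chosen with earlier results of these data known. Named genes were all 10, the 4 largest changes of the wider list in each comparison together with its edgeR DEGs, and the 5 genes most alike for the 3 largest changes. Same-numbered paHSC libraries deviated together (correlations 0.195, 0.318 and 0.323, each above 0.1), so their numbers were taken as pairs in the fits with a block. The main fit used group only. Numbers shared with yHSCs gave -0.399 to 0.0877 and were not taken as pairs. Libraries of different number and age reached higher values than the paHSC pairs. Selp_high replicate 1 with yHSC replicate 2 gave 0.439, and Selp_high replicate 2 with yHSC replicate 1 gave 0.360. A correlation above 0.1 therefore does not show that 2 libraries are a pair. The search of transcripts for IREs, the transcript lengths, the Ncoa4 copy and DESeq2 with the block were added after the data were seen. A search of promoter windows from RefSeq (250 bases before to 50 after a start) found the IRE in 0 of 11 windows of 7 of the genes, against 0.533% of 32851 windows on the sense strand and 0.481% on the other. The pairwise edgeR and DESeq2 fits without a block were tested on simulated data, and the other alternatives were not. In each comparison 200 genes were set at a log2 fold change of 3 in either direction. At the dispersion estimated from these counts, edgeR called 47.5% to 61.5% of them and DESeq2 61.5% to 72%. DESeq2 also called 62 to 73 unchanged genes. A gene that edgeR did not call can therefore still differ. Figures were drawn with matplotlib (3.10.9).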

Additional observations from a re-analysis of the deposited data

Results flagged for a closer look

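Aco1, which encodes IRP1, stood on opposite sides of the yHSCs in the 2 paHSC fractions. On the log2 scale the fold change was 0.30 (SE 0.24) in Selp_high over yHSC, with each Selp_high library above each yHSC library, and -0.38 (SE 0.23) in Selp_low over yHSC, with each Selp_low library below. It was picked out because every library of one fraction moved one way and every library of the other moved the opposite way. The separation is therefore the reason for the choice and not a further result. Of all tested genes, 8.52% were higher without overlap in Selp_high over yHSC, and 6.74% were lower in Selp_low over yHSC. The share of genes that did both was not computed. The difference between these effects was not tested as an interaction, since both comparisons use the same yHSC libraries. The direct comparison of Selp_high with Selp_low gave 0.74 (SE 0.23), with an adjusted p of 0.338 by edgeR and 0.400 by DESeq2, and from 0.0771 to 0.882 over 13 alternatives.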

How the results depend on the processing

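Of the counts of called genes, those by RLE factors, the newer quasi-likelihood setting, 1 fit of all 9 libraries, the edgeR replicate block and each left-out library stayed the same. For Selp_low over yHSC, 1 of the 10 genes (Trf) and 2 of the wider list were called without the filter on low counts, by DESeq2 and by DESeq2 with the block. DESeq2 with the block called 1 of the 10 (Slc11a1) and 6 of the wider list for Selp_high over Selp_low, and 2 of the wider list for Selp_high over yHSC. The block in edgeR changed no call of the 10. Some signs turned, and the cause was not tested. For Selp_high over Selp_low, Ireb2 was -0.033 with the block and -0.039 with DESeq2 and the block. For Selp_high over yHSC, Fth1 was -0.0038 with RLE factors, -0.0041 with DESeq2 and -0.015 with DESeq2 and the block, and Ireb2 was -0.12 and -0.13 with the blocks. For Selp_low over yHSC, Tfrc was -0.034 with RLE factors, -0.029 without the filter, -0.046 with DESeq2, -0.0067 in 1 fit of all libraries, and -0.052 and -0.100 with the blocks. With 1 library left out, log2 fold changes that changed sign ranged, for Selp_high over Selp_low, from -0.35 to 0.022 for Slc11a2, -0.19 to 0.81 for Ncoa4, -0.38 to 2.17 for Slc40a1 and -0.25 to 0.47 for Ireb2. For Selp_high over yHSC they ranged from -0.0033 to 0.82 for Slc11a1, -0.085 to 0.15 for Fth1, -0.10 to 0.42 for Ftl1, -1.21 to 0.22 for Slc40a1 and -0.36 to 0.37 for Ireb2. For Selp_low over yHSC they ranged from -0.58 to 0.37 for Tfrc and -0.28 to 0.16 for Ireb2. With 1 library left out, the edgeR fit takes the spread from the remaining libraries. Depth limits Slc11a1 most, at 40 reads in Selp_low replicate 2.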
